A study of Sus scrofa with 12 samples.

Results

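Vesicles from conditioned medium of bone marrow stromal cells carried 3 microRNA families best known from the nervous system, miR-9, miR-129 and miR-218. The families were taken by name from the deposited table of mature miRNAs, where they fill 8 of 252 rows. These are ssc-miR-9, ssc-miR-9-1 and ssc-miR-9-2, then ssc-miR-129a-5p, ssc-miR-129a-3p and ssc-miR-129b, then ssc-miR-218-5p and ssc-miR-218b, where ssc stands for Sus scrofa and is left out below. miR-9 followed the donor animal, with the donors in the same order in each culture, the 3p arm of miR-129a was higher in perfusion than on plates in all 4 animals, and miR-218 was lowest on microcarriers in all 4 animals.

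The cells were wild-type mesenchymal stromal cells, the adherent marrow cells that can form bone, cartilage and fat, from hip bone marrow of juvenile Yucatan minipigs. They had been expanded on plates and frozen before use. Cells of 4 donor animals were each grown in 3 ways, which gave 12 libraries, 1 per donor and culture. The cultures were a perfusion bioreactor with scaffolds and medium flowing at 4 mL/min, microcarriers (beads that carry the cells) in a stirred spinner flask, and flat tissue culture plates. Plates had 10% fetal bovine serum and microcarriers the same after a short start without it, while the labels give no serum content for perfusion. Any difference in serum between perfusion and the other cultures cannot be told apart from culture method. Whether the vesicles and their miRNAs came from the cells or from serum was not tested. Vesicles were collected from the conditioned medium by differential ultracentrifugation, and small RNA was sequenced. The 11 listed miRNAs typical of stromal cells summed to 380364 to 659706 normalized read counts in every library. These are sums and not shares of a library, and the 11 did not all move in the same direction between cultures.

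A miRNA is cut from a hairpin precursor, and either strand (the 5p or the 3p arm) can be loaded into a silencing complex that represses messages matching the miRNA's seed. miR-9 is abundant in vertebrate brain, where it acts in neural progenitors and neurons and represses, in mouse and human cells, the neuronal gene silencer REST. miR-129 is enriched in neurons, and in rodents it acts at synapses; both of its arms are functional. miR-218 is enriched in motor neurons of mice, its precursors lie inside the axon guidance genes SLIT2 and SLIT3, and in human marrow stromal cells it has been linked to bone formation. In the RefSeq gene table of assembly Sscrofa11.1 the pig genes MIR218-1 and MIR218B likewise overlap SLIT2 and SLIT3, and the genes MIR9-1, MIR9-2, MIR9-3, MIR129A and MIR129B overlap no protein-coding gene.

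The 8 rows held fewer than 8 separate measurements. miR-9, miR-9-1 and miR-9-2 had identical reads in all 12 libraries. miR-129b equalled miR-129a-5p in 8 of 12 libraries and differed from it by at most 4 reads in the others. miR-218-5p held 2 to 2.11 times the reads of miR-218b in every library, with a median of 2.02. By contrast, reads of miR-129a-3p ranged from 0.0411 to 1.73 times those of miR-129a-5p. Rows of a family can share reads, so the rows reduce to 4 distinct profiles, those of miR-9, miR-129a-5p, miR-129a-3p and miR-218-5p. Each of these is given once below, and each of the other rows is uncertain as a miRNA of its own.

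All of them were minor cargo. The deposited unit is a normalized read count, that is, reads divided by 1 factor per library, and libraries held 264407 (plate donor 2) to 3253003 (plate donor 4) reads. The 4 profiles together made up 0.0423% to 0.190% of the normalized counts of a library, with a median of 0.0981%. By mean level over the 12 libraries miR-218-5p ranked 79 of 252, miR-129a-5p 85, miR-129a-3p 114 and miR-9 190. Mature miRNAs are of similar length, but how readily each sequence enters a library was not measured, so these ranks compare reads and not molecules. The spread between libraries was widest for miR-218-5p, 47.8-fold between its highest and lowest library, and for miR-129a-3p, 45.4-fold. It was 8.23-fold for miR-9 and 4.11-fold for miR-129a-5p.

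**Figure D1:**
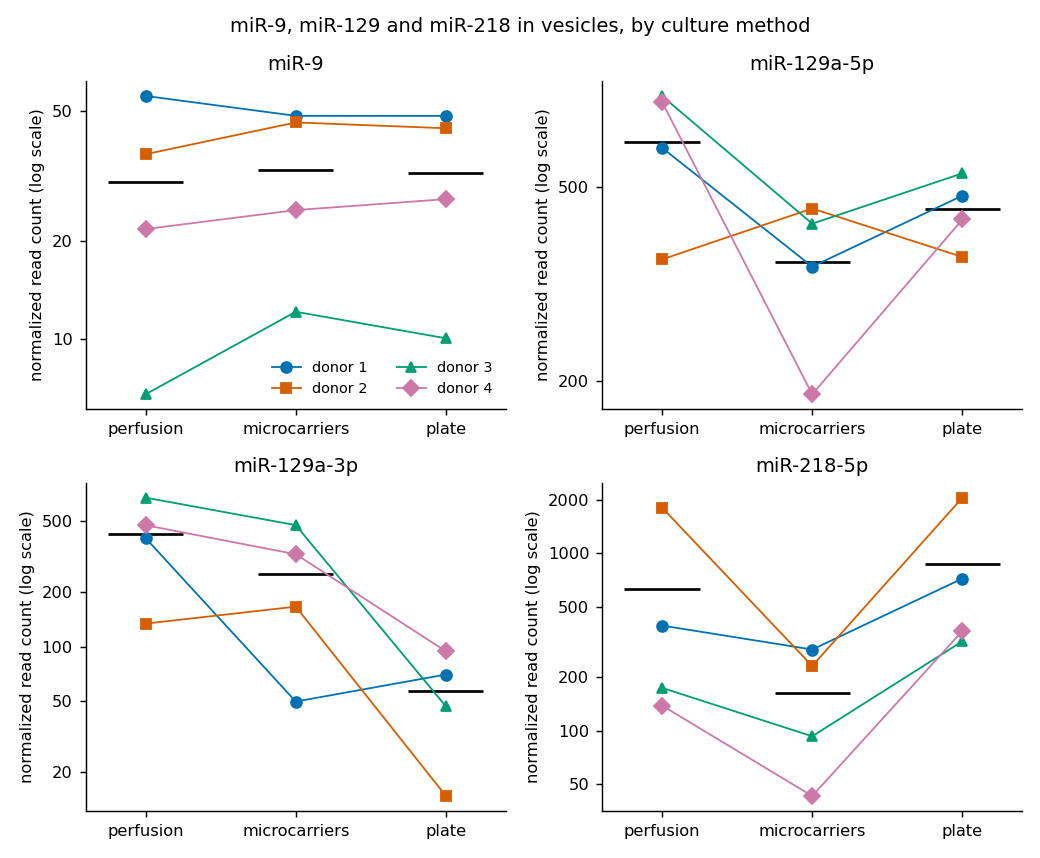
Normalized read count (log axis) of the 4 distinct profiles in the 12 libraries, by culture method; points of the same donor are joined and black bars are group means. Donor lines of miR-9 do not cross, miR-129a-3p is higher in perfusion than on plates in all 4 donors, and miR-218-5p dips on microcarriers in all 4 donors.

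miR-9 was tied to the donor. In perfusion it had 55.7, 36.9, 6.77 and 21.7 normalized counts in donors 1, 2, 3 and 4. On microcarriers the values were 48.4, 46.2, 12.1 and 24.9 in the same order, and on plates 48.4, 44.3, 10.0 and 26.9. The order of the donors was the same in all 3 cultures, with donor 1 highest, then donors 2 and 4, and donor 3 lowest, and the 3 cultures of a donor lay close together. Averaged over its cultures, donor 1 had 50.8 ± 4.22, donor 2 42.5 ± 4.92, donor 3 9.65 ± 2.70 and donor 4 24.5 ± 2.58 normalized counts (SD, n = 3 libraries each). These are low counts, from 5 reads in perfusion donor 3 to 92 in microcarrier donor 1. Exact 95% Poisson intervals, which cover counting error only, were 2.20 to 15.8 normalized counts in perfusion donor 3 and 44.0 to 69.6 in perfusion donor 1. The intervals of donors 1 and 2 overlapped within each culture, and so did those of donors 2 and 4. Those of donors 4 and 3 overlapped in perfusion and on microcarriers but not on plates. Neighbours in the order were thus not resolved beyond counting error, apart from donors 4 and 3 on plates. Intervals of donor 3 ended below those of donors 1 and 2 in each culture.

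**Figure D2:**
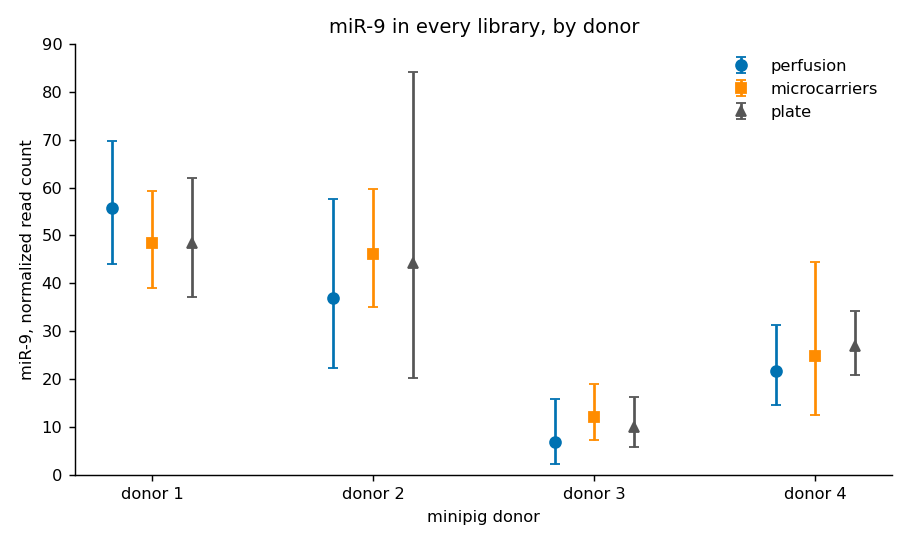
Normalized read count of miR-9 in each library by minipig donor, with colours for culture method and bars for exact 95% Poisson intervals (counting error only). The cultures of a donor cluster together, and donor 3 lies lowest in every culture, at 6.77 to 12.1.

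Culture means of miR-9 were 30.3 ± 20.9 in perfusion, 32.9 ± 17.5 on microcarriers and 32.4 ± 17.6 on plates (SD, n = 4 each), and the 3 groups overlapped throughout. On the log2(value + 1) scale the fitted difference was -0.22 ± 0.67 for perfusion against plate, 0.05 ± 0.67 for microcarriers against plate and -0.26 ± 0.67 for perfusion against microcarriers (SE, limma, adjusted p = 0.854, 0.977 and 0.793). With donor as a term in the fit the 95% intervals of these differences narrowed to -0.89 to 0.46, -0.62 to 0.72 and -0.94 to 0.41. A change of miR-9 by up to about these bounds is not excluded by the data.

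Donors were also compared in the fit with culture and donor, by limma's moderated F test over all 252 miRNAs, a test added after the values were seen. miR-9 passed (adjusted p = 0.00606), as did miR-218-5p (adjusted p = 0.00606) and miR-218b (adjusted p = 0.00624). Among all miRNAs 21 passed, a share of 8.33%, against 5 of the 8 rows of these families. Kept to 1 row per set of shared reads, 2 of 4 profiles passed beside 7.26% of 248 rows. miR-129a-3p (adjusted p = 0.191) and miR-129a-5p (adjusted p = 0.646) did not pass. miR-9 and both miR-218 rows passed with any 1 of the 12 libraries left out, at adjusted p up to 0.0346 for miR-9 and 0.0369 for miR-218-5p. The 3 rows of miR-9 gave donor a larger part of their squared deviations than any other row of the table, 95.8% beside 1.56% for culture, where the medians over all 252 miRNAs were 24.4% for donor and 39.0% for culture. Next were miR-199b-3p and miR-199a-3p, each at 93.2%. Donor and culture held 53.3% and 38.7% for miR-218-5p, 22.9% and 58.2% for miR-129a-3p, and 16.3% and 41.3% for miR-129a-5p. For miR-129a-5p the part held by neither, 42.4%, was the largest.

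**Figure D3:**
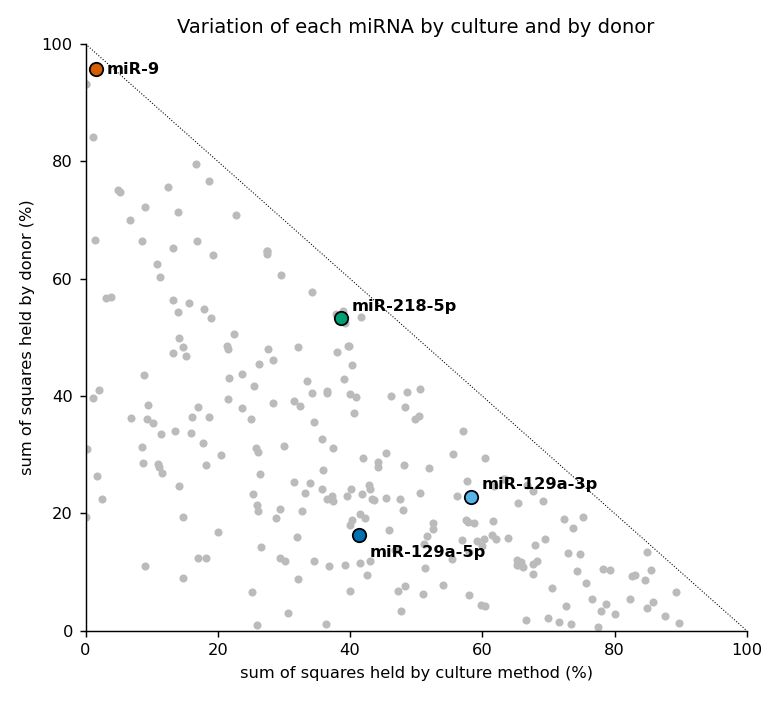
Share of each miRNA's squared deviations on the log2(value + 1) scale held by culture method (x axis, percent) and by donor (y axis, percent), for all 252 rows in grey and the 4 distinct profiles in colour; points on the dotted line leave no remainder. miR-9 lies at the donor end with 95.8%, miR-218-5p combines 53.3% with 38.7% for culture, and both arms of miR-129a hold more for culture than for donor. For miR-129a-5p the remainder, 42.4%, is larger than the 41.3% held by culture.

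The 3p arm of miR-129a was high in perfusion and low on plates. The 3p arm had 400.1, 134.0, 671.1 and 471.7 normalized counts in perfusion donors 1 to 4. On microcarriers it stood at 49.5, 166.5, 472.1 and 325.5, and on plates at 69.9, 14.8, 46.5 and 94.0. The lowest perfusion library thus lay above the highest plate library, a separation that 23.0% of all miRNAs had in either direction, while microcarriers overlapped with both. Means were 419.2 ± 222 in perfusion, 253.4 ± 185 on microcarriers and 56.3 ± 33.8 on plates (SD, n = 4 each). The value of plate donor 2 rests on 3 reads of the shallowest library, with an exact Poisson interval of 3.05 to 43.2 normalized counts.

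Set against plates, miR-129a-3p rose in perfusion, with a log2 difference of 2.93 ± 0.72 (SE, n = 4 each, limma adjusted p = 0.0130). It was higher in 4 of 4 donors, by 2.50, 3.10, 3.82 and 2.31 in donors 1 to 4, as were 21.8% of all miRNAs. The call held with any 1 of the 12 libraries left out (2.40 to 3.41, adjusted p up to 0.0415). Of the 8 rows it was the 1 that passed in this comparison, where 20.6% of all miRNAs did and 10.3% were higher, or 12.7% with donor as a term. In vesicle RNA, fewer vesicles of a kind and less miRNA per vesicle cannot be told apart.

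On microcarriers miR-129a-3p differed from plates by 2.00 ± 0.72 (SE) without passing (limma adjusted p = 0.122), and by the same amount it passed with donor as a term (adjusted p = 0.0460). Donors 2, 3 and 4 were higher on microcarriers, by 3.41, 3.32 and 1.78, and donor 1 was lower by the difference of -0.49. The call with donor as a term held without perfusion replicate 1, microcarriers replicate 1 or plate replicate 1, and was lost without any 1 of the other 9 libraries, at adjusted p up to 0.168. Perfusion and microcarriers differed by 0.93 ± 0.72 (limma adjusted p = 0.393), with a 95% interval of -0.61 to 2.47. Most of that came from donor 1, higher by 2.99 in perfusion, while the other donors differed by -0.31 to 0.53.

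The 5p arm varied less. miR-129a-5p had 603.4, 355.5, 771.3 and 749.9 normalized counts in perfusion donors 1 to 4, then 343.6, 452.5, 421.1 and 187.6 on microcarriers and 480.8, 359.7, 534.5 and 429.5 on plates. Perfusion donor 2 lay just below the lowest plate library, and the other 3 perfusion libraries lay above every microcarrier and plate library. The group means were 620.0 ± 191 in perfusion, 351.2 ± 118 on microcarriers and 451.1 ± 74.5 on plates (SD, n = 4 each). Limma passed none of these differences, at 0.41 ± 0.34 for perfusion against plate (adjusted p = 0.440), -0.42 ± 0.34 for microcarriers against plate (adjusted p = 0.460) and 0.83 ± 0.34 for perfusion against microcarriers (adjusted p = 0.112). The last had an unadjusted p of 0.0284.

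The ratio of 3p to 5p reads within a library does not depend on how libraries were scaled. The 5p reads are shared with miR-129b, so they cannot be assigned to the miR-129a hairpin alone. For each read of the 5p arm, perfusion donors 1 to 4 held 0.663, 0.377, 0.870 and 0.629 reads of the 3p arm. Microcarrier libraries held 0.144, 0.368, 1.12 and 1.73, and plates 0.145, 0.0411, 0.0870 and 0.219. The 3p arm was thus the minor arm in every perfusion and plate library and outnumbered the 5p arm on microcarriers in donors 3 and 4. For the test the log2 ratio was taken of normalized counts with 1 added to each arm, so it depends in part on scaling. This log2 ratio was -0.72 ± 0.50 in perfusion, -0.81 ± 1.61 on microcarriers and -3.24 ± 1.01 on plates (SD, n = 4 each). Perfusion and plates did not overlap and differed by 2.52 (exact two-sided permutation p = 0.0286, the smallest that 4 against 4 libraries can give, and 0.0857 adjusted over the 3 comparisons). Microcarriers and plates overlapped and differed by 2.43 (exact permutation p = 0.0857, adjusted 0.129), and perfusion and microcarriers by 0.10 (exact permutation p = 0.943). With 3 comparisons, a single one at the smallest possible p cannot pass after adjustment.

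**Figure D4:**
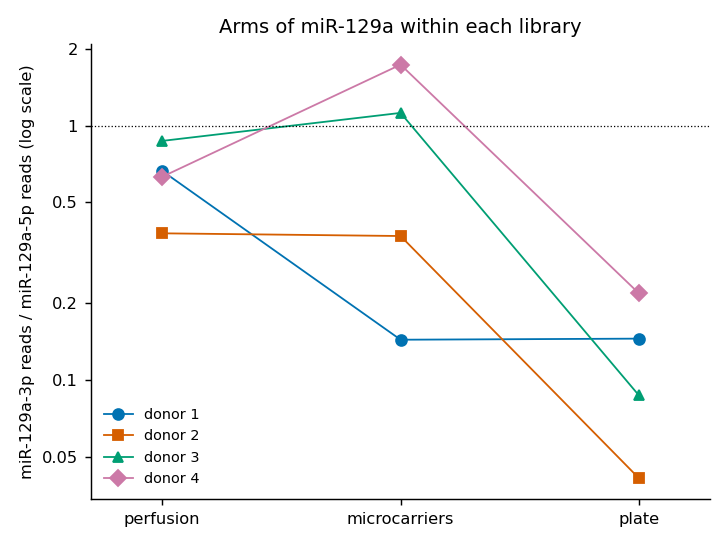
Reads of miR-129a-3p per read of miR-129a-5p (log axis) in the 12 libraries by culture method, with points of the same donor joined and equal reads marked by the dotted line. Perfusion libraries lie at 0.377 to 0.870, above all plate libraries at 0.0411 to 0.219, and microcarriers run from 0.144 to 1.73.

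miR-218 was lowest on microcarriers and differed strongly between donors. miR-218-5p had 391.4, 1806, 174.5 and 138.7 normalized counts in perfusion donors 1 to 4. On microcarriers the donors had 286.8, 231.8, 93.1 and 42.9, and on plates 719.7, 2054, 319.1 and 364.8. Donor 2 was by far the highest in perfusion and on plates but not on microcarriers, where donor 1 was. Every plate library lay above every microcarrier library, where 11.9% of all miRNAs were separate in either direction, and perfusion overlapped with both. Means were 627.8 ± 794 in perfusion, 163.7 ± 115 on microcarriers and 864.5 ± 813 on plates (SD, n = 4 each).

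Microcarriers against plates gave miR-218-5p a log2 difference of -2.32 ± 0.82 (SE), which did not pass in limma with culture alone (adjusted p = 0.122). With donor as a term miR-218-5p fell by 2.32 ± 0.39 (adjusted p = 0.00380) and miR-218b fell by 2.34 ± 0.39 (adjusted p = 0.00380). Within donors 1 to 4 the differences of miR-218-5p were -1.32, -3.14, -1.77 and -3.06, and 17.9% of all miRNAs were likewise lower in 4 of 4 donors. The call held with any 1 library left out (-2.66 to -1.94, adjusted p up to 0.0233). miR-218b, at 20.3 to 142.1 normalized counts on microcarriers against 157.7 to 1015 on plates, followed the same reads.

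Perfusion stood between the other cultures for miR-218-5p. It was above microcarriers in 4 of 4 donors, by 0.45, 2.96, 0.90 and 1.67, as were 23.8% of all miRNAs. The fitted 1.49 ± 0.82 did not pass with culture alone (limma adjusted p = 0.238), and with donor as a term, at 1.49 ± 0.39, it did (adjusted p = 0.0170). That call was lost without perfusion replicate 2, which had the highest perfusion value (1.14, adjusted p = 0.0721), and without microcarriers replicate 2 (1.11, adjusted p = 0.0560). The miR-218b call was lost in the same 2 cases, with 1.14 and 1.11 at adjusted p = 0.0790 and 0.0624, and also without microcarriers replicate 4 (1.33, adjusted p = 0.0547). Against plates, perfusion was lower in 4 of 4 donors, by differences of -0.88, -0.19, -0.87 and -1.39, as were 22.6% of all miRNAs. Neither fit called it, at -0.83 ± 0.82 with culture alone (adjusted p = 0.506) and -0.83 ± 0.39 with donor as a term (adjusted p = 0.143).

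**Figure D5:**
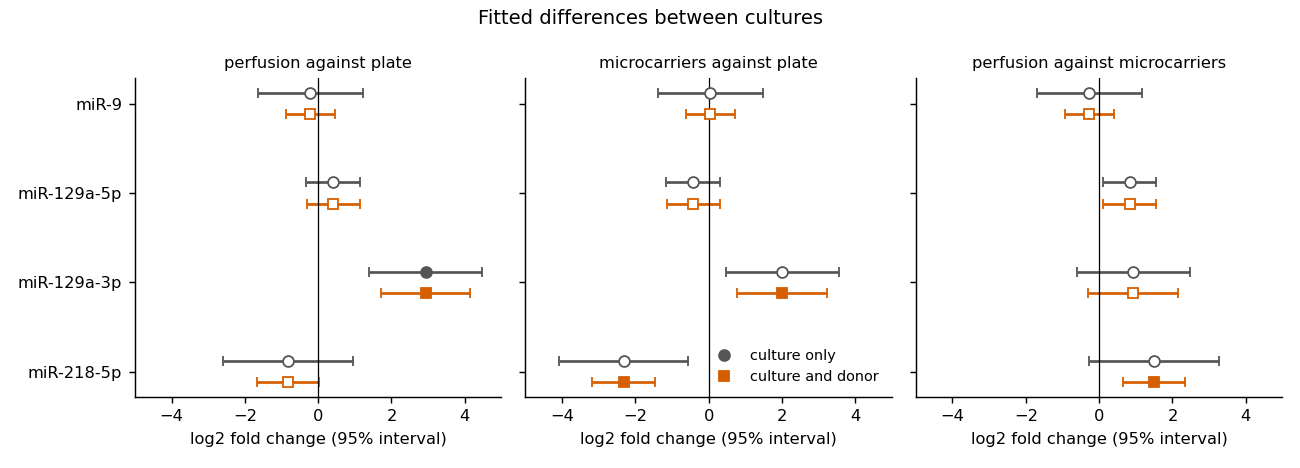
Fitted log2 fold change, first-named culture minus second, with 95% intervals for the 4 distinct profiles in the 3 comparisons, from fits with culture only (circles) and with culture and donor (squares). Filled symbols passed an adjusted p of 0.05: miR-129a-3p in perfusion against plate in both fits, and miR-129a-3p and miR-218-5p in further comparisons only with donor in the fit.

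Counted over the 8 rows, limma with culture alone called 1 row higher in perfusion against plate. In microcarriers against plate it called 0 rows, where 2.38% of all miRNAs passed. In that comparison 3 rows had an unadjusted p under 0.05, beside 20.2% of all miRNAs, and limma-voom on recovered reads called 0, beside 2.38%. In perfusion against microcarriers it called 0 rows, where 15.5% of all miRNAs passed. Here 2 rows had an unadjusted p under 0.05, beside 29.4% of all miRNAs, and limma-voom called 0, beside 15.5%. With donor as a term 1 row was higher and 2 rows were lower on microcarriers than on plates, where 5.16% and 3.97% of all miRNAs were, and 2 rows were higher in perfusion than on microcarriers, where 9.92% were called higher. The 2 comparisons with plates share the same 4 plate libraries. The median log2 difference over the 8 rows was -0.22, -0.19 and 0.83 for perfusion against plate, microcarriers against plate and perfusion against microcarriers, beside -0.06, 0.11 and -0.07 over all 252 miRNAs. These medians, and the counts of rows in this paragraph, count shared reads more than once.

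A list of other miRNAs known for neural roles had 32 entries, of which 14 were measured, in 15 rows. It was chosen with earlier results of these data known, so its counts are not independent of them. In perfusion against plate 3 of 15 rose and 1 fell in limma, beside 10.3% of all miRNAs in each direction. Limma-voom called 3 of the 15, and its share over all miRNAs was not counted for this comparison. miR-149 averaged 294.7 ± 49.4 normalized counts in perfusion and 118.7 ± 13.5 on plates (1.30 ± 0.26, adjusted p = 0.00670). miR-132, an activity-induced miRNA of neurons, averaged 212.0 ± 142 in perfusion and 42.3 ± 24.8 on plates (2.26 ± 0.54, adjusted p = 0.0110). miR-7-5p, a miRNA of brain and endocrine pancreas, averaged 14487 ± 9357 in perfusion and 3707 ± 1450 on plates (1.79 ± 0.45, adjusted p = 0.0153). miR-432-5p, from the imprinted cluster next to DLK1, fell by 2.50 ± 0.80 (adjusted p = 0.0399), at 2.38 ± 1.16 normalized counts in perfusion and 19.2 ± 10.2 on plates (SD, n = 4 each), and by 1.18 without passing with a pseudocount of 10. Its call was lost without any 1 of the perfusion libraries, microcarriers replicate 2, or plate replicate 1, 2 or 3 (-2.79 to -2.20 over the 12 libraries left out in turn, adjusted p up to 0.110), while the 3 rises kept theirs with any 1 library left out. Its neighbour miR-382 differed by -3.37 ± 1.15 (adjusted p = 0.0518), which came under the threshold once donor was fitted (adjusted p = 0.0327), and it was listed at 0 in perfusion donors 2 and 3. The median over the 15 rows was 0.25.

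On microcarriers 0 of the 15 passed against plates in limma, with 0 at an unadjusted p under 0.05 and 0 in limma-voom, beside 2.38%, 20.2% and 2.38% of all miRNAs, and their median was 0.18. In perfusion against microcarriers miR-149 (1.31 ± 0.26, adjusted p = 0.00410) and miR-7-5p (1.61 ± 0.45, adjusted p = 0.0299) were higher, beside 5.56% of all miRNAs, and miR-432-5p (-2.80 ± 0.80, adjusted p = 0.0312, and -1.54 without passing at a pseudocount of 10) was lower, beside 9.92%. The miR-7-5p call was lost without perfusion replicate 1, 2 or 4 or microcarriers replicate 1 or 3 (1.22 to 2.09 over the 12 left out in turn, adjusted p up to 0.0789), and that of miR-432-5p without perfusion replicate 1, 3 or 4 or microcarriers replicate 1 or 2 (adjusted p up to 0.0842). Limma-voom called 2 of the 15, beside 15.5% of all miRNAs, and the median over the 15 rows was -0.49. With donor as a term miR-342 (adjusted p = 0.00707) and miR-382 (adjusted p = 0.0442) were also lower there, where 34 of all 252 miRNAs were called lower. In the comparison of donors 2 of the 15 passed, miR-183 and miR-342, beside 8.33% of all miRNAs. Of 6 listed neuron markers outside the families 1 was measured, miR-128, which is also among the 15 rows above. It passed in none of the 3 comparisons, by limma, by unadjusted p under 0.05 or by limma-voom, and stood at 613.0 to 1005 normalized counts in perfusion, 341.3 to 1097 on microcarriers and 288.3 to 1269 on plates.

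Calls among markers of other cell types lay mostly in comparisons with perfusion. In microcarriers against plate limma called 0 of the 7 blood cell, 2 endothelial, 1 liver and 3 muscle miRNAs, beside 2.38% of all miRNAs. With donor as a term 1 muscle miRNA was lower there, beside 3.97% of all miRNAs. All 7 listed blood cell miRNAs were lower in perfusion than on plates in limma, beside 10.3% of all miRNAs. Limma-voom called 6 of 7, without a share over all miRNAs to set beside it. The 7 summed to 39.1 to 384.6 normalized counts in perfusion, 2457 to 8852 on microcarriers and 699.0 to 3228 on plates, and 1 of them, miR-223, was listed at 0 in all perfusion libraries. Both arms of the endothelial miR-126 fell likewise, with a summed level of 118.7 to 190.8 in perfusion, 944.8 to 6092 on microcarriers and 582.9 to 2184 on plates. The liver miR-122-5p stood at 7.24 to 40.8 in perfusion, 178.0 to 1911 on microcarriers and 140.7 to 1088 on plates. It was higher in donors 1 and 2 than in donors 3 and 4 on microcarriers and plates, and highest there in donor 1, as was miR-9. In perfusion its counts were low, and donor 1, the highest for miR-9, was the lowest. Of the 3 measured muscle miRNAs 2 were lower in perfusion than on plates, beside the same 10.3%. The remaining muscle row, miR-133a-3p, differed there by 0.70 ± 0.37 (SE) without passing (limma adjusted p = 0.225). Against microcarriers it was higher in perfusion by 1.87 ± 0.37 (SE, limma adjusted p = 0.00379), beside 5.56% of all miRNAs. The 3 muscle miRNAs summed to 253.5 to 883.8 in perfusion, 237.3 to 999.7 on microcarriers and 749.7 to 1981 on plates. In the comparison of donors 0 of 7 blood cell, 0 of 2 endothelial, 0 of 1 liver and 0 of 3 muscle miRNAs passed, and 3 of 11 stromal ones did (miR-199a-3p, miR-214-3p and miR-100), beside 8.33% of all miRNAs. At that share, counts of 0 in lists this short say little. The part of these markers in the differences of miR-9, miR-129a-3p and miR-218 was not tested.

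Over the 12 libraries, which share culture and donor structure, the profiles most like miR-9 in log2(value + 1) outside the families were miR-183 (Pearson r = 0.82), miR-24-2-5p (0.79) and miR-27b-3p (0.78). For miR-129a-3p they were miR-454 (0.85), miR-365-3p (0.82) and miR-331-3p (0.82), and for miR-129a-5p miR-532-3p (0.79), miR-769-3p (0.77) and miR-345-3p (0.74). For miR-218-5p they were miR-582-3p (0.87), miR-193a-5p (0.84) and miR-450c-5p (0.82). Among the 4 profiles themselves r was 0.31 between the arms of miR-129a, 0.47 between miR-9 and miR-218-5p, and -0.67 between miR-129a-3p and miR-218-5p.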

How the data were processed

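The 12 small RNA libraries were made with a NEBNext kit, per the labels' protocols, and Bowtie was the aligner, per the submitters' processing notes. No version, genome build, miRNA annotation or counting method was found in the labels or the header. The authors deposited a signal on a linear scale that the header calls a normalized read count. Values were whole multiples, within 0.001, of 1 step per library, and dividing by the step gave the reads. A column went to a sample by its library number. Replicates are separate animals, and libraries of the same donor number come from the same animal, so the numbers pair the libraries (their deviations from group means correlated at 0.02 to 0.67).

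A miRNA entered the fit if it reached 1 in 4 or more of the 12 libraries, as all 252 did. Limma 3.58.1 (R 4.3.3, with trend) was fitted to log2(value + 1) with culture as the factor, and a call is a Benjamini-Hochberg adjusted p under 0.05. Such fold changes understate changes of low miRNAs. A fit with donor as a block stands beside it. The fit was tested on simulated data. Arm ratios were compared by exact permutation (Python 3.11.15, SciPy 1.17.1).

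Members, lists and the rule for named miRNAs (the 8 rows, the 3 nearest profiles of each, list members that passed and up to 4 more by smallest p) were chosen with earlier results of these data known. Alternatives were the donor block, library totals, pseudocounts, filters, fits of 2 groups, 1 row per set of shared reads and each library left out. Limma-voom, the comparison of donors and leaving out libraries under the block were added after seeing the data.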

Additional observations from a re-analysis of the deposited data

Results flagged for a closer look

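In perfusion, donor 2 stood far from the other donors for miR-218-5p, at 1806 normalized counts against 138.7 to 391.4, and for miR-218b, at 874.1 against 69.0 to 192.5. On linear counts the gap to the nearest library was 0.848 and 0.847 of the group's range, above Dixon's critical value of 0.829 for 4 samples. On the log2 scale of the fits the gap takes up a smaller part of the range. Both rows share reads, so they are 1 observation. Chance flags about 5% of groups, and 27 groups were examined. Donor 2 was also the highest plate library, at 2054 for miR-218-5p.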

How the results depend on the processing

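The rise of miR-129a-3p in perfusion against plate kept its call under all alternatives run. With donor as a block, calls over all miRNAs numbered 23 in place of 6 for microcarriers against plate and 59 in place of 39 for perfusion against microcarriers. With 1 library left out they ranged over 29 to 55 for perfusion against plate (52 with all), 3 to 12 for microcarriers against plate, 22 to 49 for perfusion against microcarriers and 10 to 38 between donors (21 with all). Under the block these ranges were 35 to 70, 6 to 36 and 39 to 70 for the 3 comparisons of cultures. The lowest counts came without perfusion replicate 1 (29), plate replicates 3 or 4 (3), perfusion replicate 4 (22) and microcarriers replicate 3 (10 between donors, and 6 and 39 under the block). A fit of 2 groups gave 3 calls for microcarriers against plate.

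The arm ratio of miR-129a in perfusion against plate was 2.52 with exact sign flips within donors (replicate block), where the smallest possible p is 0.125, and 2.10 to 2.88 with 1 library left out, each at the smallest exact permutation p of 0.0571. For perfusion against microcarriers it ranged over -0.55 to 0.63, and was below 0 without perfusion replicate 3, microcarriers replicate 1 or microcarriers replicate 2. Uncalled differences of miR-9, miR-9-1 and miR-9-2 near 0 changed sign. Perfusion against plate was 0.048 in limma-voom and -0.68 to 0.34 with 1 library left out. Microcarriers against plate was -0.019 under library totals, -0.41 to 0.44 with 1 library left out, and -0.065 to 0.14 so under the block. Perfusion against microcarriers was -0.66 to 0.29 with 1 library left out. miR-7-3p in perfusion against plate was -0.0034 to 1.38. The block changed no call of the 8 rows other than those given above. The edgeR alternative was not run. The cause of these changes was not tested. Depth limits miR-9, at 5 to 92 reads, and miR-129a-3p in plate donor 2, at 3 reads.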
